A study of Mus musculus with 12 samples.

Results

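The genes described here are 6 acyl-CoA thioesterases (Acot1, Acot2, Acot7, Acot9, Acot11 and Acot13) and 2 mitochondrial uncoupling proteins (Ucp2 and Ucp3) in skeletal muscle of mice that lack PTRF, the caveolar coat protein encoded by Cavin1. They were matched by exact gene symbol, and all 8 were found among the 21936 genes listed. The genes were chosen by their knockout against wild-type values in these same libraries, so those values are given as a description, without a test.

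The compared groups were PTRF knockout mice, labelled as having muscular dystrophy, and wild-type mice labelled normal, all C57BL/6N at 3 months of age. The 12 samples of sequenced polyadenylated RNA carry the muscle names soleus and quadriceps, with 3 per muscle and genotype. The cells in which the deletion acts are not given in the sources used here. Each quadriceps sample held the same values as the soleus sample of its genotype and number, with a largest difference of 0, so there were 6 distinct libraries, 3 knockout (KO) and 3 wild type (WT). The muscle of origin cannot be told from the files. The 10 fibre genes checked (actin, creatine kinase, myoglobin, desmin, troponin and myosin heavy chain genes) were all detected in every library, with summed levels of 42727 to 51545 TPM in KO and 38884 to 42900 TPM in WT libraries. TPM is a gene's share of a library's transcripts after division by transcript length. The files do not name the unit, which was read from the values, and their totals ran from 843194 to 872482 per library. TPM keeps no read depth, so the depth is unknown. Cavin1 stood at 0.0254 to 0.284 TPM in KO and 40.0 to 45.2 TPM in WT libraries. The sources used here do not say whether replicates were different mice, so spreads and p-values cover only these samples and may be technical. Myh4, the fastest myosin heavy chain, was at 238, 580.1 and 346 TPM in KO libraries and at 6.43, 194 and 4.21 TPM in WT libraries (limma adjusted p = 0.0075), with WT library 2 well above the other WT libraries. Of the 10 fibre genes only Myh4 and the desmin gene Des passed, both as higher. The other myosin heavy chain genes did not pass. Their log2 fold changes were 0.40 for the slow form Myh7 (limma adjusted p = 0.15), 0.01 for Myh2 (limma adjusted p = 0.97) and 0.76 for Myh1 (limma adjusted p = 0.077). The part of Myh4-expressing fibres in the values below was not tested.

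Acyl-CoA thioesterases split acyl-CoA into a free fatty acid and coenzyme A, the carrier on which fatty acids are activated and oxidised. Acot1 acts in the cytosol and Acot2 in the mitochondrial matrix on long-chain acyl-CoA. Acot7 is a cytosolic enzyme abundant in brain, Acot9 and Acot13 are mitochondrial, and Acot11 is best known from brown fat. Uncoupling proteins are carriers of the mitochondrial inner membrane. Ucp3 is the form typical of skeletal muscle and brown fat, and its transcript is known to climb when circulating fatty acids are high, as in fasting. Ucp2 is expressed in many tissues and is abundant in macrophages and other immune cells. Fatty acids activate nuclear receptors of the PPAR family, which bind paired AGGTCA half-sites, and Ucp3, Acot1, Acot2 and the kinase gene Pdk4 are known targets of these receptors.

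Promoter sequences are shown for Ucp3, Acot2, Acot1 and Acot9, which had the widest gaps between genotypes as deposited. Ucp2, with a smaller gap, is shown as the neighbour of Ucp3. Acot1 and Acot2 are neighbours as well, and the Ucp3 window holds receptor half-sites. Each sequence is the 250 bases before the transcription start, from RefSeq on GRCm38.p6, written 5′ to 3′ on the strand of the gene. Capitals mark matches to the half-site AGGTCA, or, with up to 2 mismatches, to a direct repeat of AGGTCA with 1 free base between the copies. Both strands were searched.
Ucp3 (chr7:100472741-100472990, plus strand): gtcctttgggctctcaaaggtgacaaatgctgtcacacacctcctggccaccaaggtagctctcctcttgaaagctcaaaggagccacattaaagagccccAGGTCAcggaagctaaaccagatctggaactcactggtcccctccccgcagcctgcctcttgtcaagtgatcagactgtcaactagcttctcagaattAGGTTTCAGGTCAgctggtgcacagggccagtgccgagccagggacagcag
Ucp2 (chr7:100493108-100493357, plus strand): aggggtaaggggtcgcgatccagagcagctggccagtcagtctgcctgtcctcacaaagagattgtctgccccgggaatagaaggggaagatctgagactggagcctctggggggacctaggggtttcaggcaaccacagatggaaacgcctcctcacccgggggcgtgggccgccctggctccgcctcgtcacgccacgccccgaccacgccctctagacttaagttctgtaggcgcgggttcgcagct
Acot2 (chr12:83987611-83987860, plus strand): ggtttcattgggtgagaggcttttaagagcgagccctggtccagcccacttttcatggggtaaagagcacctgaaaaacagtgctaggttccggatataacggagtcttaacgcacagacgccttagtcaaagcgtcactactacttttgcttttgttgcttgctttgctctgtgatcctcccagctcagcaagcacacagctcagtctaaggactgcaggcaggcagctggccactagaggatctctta
Acot1 (chr12:84009252-84009501, plus strand): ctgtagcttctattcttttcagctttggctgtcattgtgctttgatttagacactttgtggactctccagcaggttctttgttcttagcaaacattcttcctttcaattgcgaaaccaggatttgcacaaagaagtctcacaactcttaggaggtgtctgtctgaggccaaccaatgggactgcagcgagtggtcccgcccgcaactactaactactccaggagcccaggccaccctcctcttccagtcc
Acot9 (chrX:155262193-155262442, plus strand): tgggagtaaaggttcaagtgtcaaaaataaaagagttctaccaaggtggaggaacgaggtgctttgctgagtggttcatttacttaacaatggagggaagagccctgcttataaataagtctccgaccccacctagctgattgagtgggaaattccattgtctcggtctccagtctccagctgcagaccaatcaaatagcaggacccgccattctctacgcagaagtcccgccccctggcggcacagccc

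Windows were found for 7 of the 8 genes, the exception being Acot13. In the Ucp3 window AGGTCA occurred at positions -149 and -44 relative to the start, and the match at -44 lay inside a paired match, AGGTTTCAGGTCA, that began at -51 with 2 mismatches. Of all 32851 windows in the table, 14.0% held AGGTCA and 3.24% held the paired motif with up to 2 mismatches. None of the windows of the other members held either. Sequence outside these 250 bases was not searched, so receptor sites elsewhere in any of the genes are not covered. The E-box CACGTG, searched in the same way and found in 6.02% of all windows, occurred among the members only in a second window of Acot11. The Acot1 and Acot2 windows shared no run longer than 9 bases, and the same held for Ucp2 and Ucp3.

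Positions below are from GENCODE M21 on GRCm38, and all 8 genes are annotated as protein coding. Acot2 (ENSMUSG00000021226, chromosome 12, 83987861 to 83993873, plus strand) and Acot1 (ENSMUSG00000072949, 84009490 to 84018371, plus strand) are neighbours separated by 15616 bases. Ucp3 (ENSMUSG00000032942, chromosome 7, 100472990 to 100486432, plus strand) and Ucp2 (ENSMUSG00000033685, 100493337 to 100502020, plus strand) lie 6904 bases apart. Acot9 (ENSMUSG00000025287) is on chromosome X from 155262443 to 155297654, plus strand. Acot13 (ENSMUSG00000006717) is on chromosome 13 from 24817948 to 24831540, minus strand. Acot7 (ENSMUSG00000028937, 152178134 to 152271855, plus strand) and Acot11 (ENSMUSG00000034853, 106744555 to 106804998, minus strand) are both on chromosome 4.

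Acot2, Acot1 and Ucp3 stood lower in KO than in WT libraries by the widest margins, Acot9 stood higher, and Acot7 was at nearly the same level. Acot2 was at 8.28, 10.95 and 7.05 TPM in KO libraries 1, 2 and 3, against 33.9, 41.4 and 46.3 TPM in WT libraries 1, 2 and 3. The KO mean of 8.76 ± 1.99 TPM was 21.6% of the WT mean of 40.5 ± 6.25 TPM (SD, n = 3 each), and the highest KO value was below the lowest WT value. On the log2(TPM + 1) scale, on which every difference here is KO minus WT, this was -2.10 with a standard error of 0.18. Acot1, the cytosolic partner, was at 10.8, 7.56 and 10.6 TPM in KO libraries and at 18.4, 24.6 and 35.9 TPM in WT libraries. Its groups did not overlap either, and its log2 difference was -1.32 (SE 0.22), with a WT spread of 8.89 TPM around a mean of 26.3 TPM.

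Acot1 and Acot2 are close in sequence. Of the stretches of 31 bases in their GENCODE transcripts, 16.7% of those of Acot1 and 29.9% of those of Acot2 occur in the other gene, so the division of reads between them is uncertain. The sum of both genes was 19.1, 18.5 and 17.7 TPM in KO libraries and 52.3, 66.0 and 82.2 TPM in WT libraries. Within the KO group the sum varied less (coefficient of variation 3.99%) than Acot1 (18.9%) or Acot2 (22.8%), since the KO library with the least Acot1 had the most Acot2. The WT group did not show this. There the coefficient was 22.4% for the sum, 33.8% for Acot1 and 15.4% for Acot2. Both genes were lowest in WT library 1 and highest in WT library 3. The log2 difference of the sum was -1.78. The ratio of Acot2 to Acot1 within a library was 0.764, 1.45 and 0.665 in KO libraries and 1.84, 1.68 and 1.29 in WT libraries, and here the groups overlapped.

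Ucp3 varied most of all 8 genes within the KO group. It stood at 21.7, 8.05 and 3.09 TPM in KO libraries 1, 2 and 3, and at 33.2, 58.2 and 39.4 TPM in WT libraries. The KO values spanned 7.05-fold and the WT values 1.75-fold, yet the groups did not overlap. The KO mean was 25.1% of the WT mean (10.96 ± 9.66 and 43.6 ± 13.00 TPM, SD, n = 3 each), and the log2 difference was -2.20 (SE 0.46). It was -2.84 without KO library 1 and -1.60 without KO library 3. KO library 1 also held transcripts of liver genes. The 7 liver markers checked, Alb among them, summed to 39.5 TPM there and to 0.644 to 2.01 TPM in the other 5 libraries. All 7 were detected in KO library 1, while Apoa1 and Fgb were listed at 0 in all 3 WT libraries. The part of this in the Ucp3 value of that library was not tested.

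Ucp2, the neighbour of Ucp3, was at 22.5, 19.2 and 20.6 TPM in KO libraries and at 13.3, 15.0 and 16.8 TPM in WT libraries. The groups did not overlap, and the log2 difference was 0.44 (SE 0.15). The ratio of Ucp3 to Ucp2, which a single scaling factor per library cannot alter, was 0.968, 0.418 and 0.1498 in KO libraries and 2.51, 3.87 and 2.34 in WT libraries. Ucp3 thus exceeded Ucp2 in each WT library and in no KO library. Ucp3 made up 30.6 ± 18.1% of the summed TPM of both genes in KO and 73.7 ± 5.05% in WT (SD, n = 3 each).

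Acot9, a mitochondrial thioesterase, was at 46.6, 24.0 and 32.2 TPM in KO libraries and at 12.8, 14.0 and 16.4 TPM in WT libraries, and the KO libraries were all above the WT libraries. The means were 34.3 ± 11.4 TPM in KO and 14.4 ± 1.84 TPM in WT (SD, n = 3 each), 2.38-fold, and the log2 difference was 1.15 (SE 0.21). Of its 31-base stretches 28.6% occur in other genes, most of them in Acot10, which was listed at 0 in all 6 libraries. The ratio of Acot9 to Acot2 within a library was 5.62, 2.19 and 4.56 in KO libraries and 0.379, 0.337 and 0.355 in WT libraries.

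Macrophage markers were higher in KO libraries, as were Acot9 and Ucp2. All 15 markers checked, Adgre1, Csf1r and C1qa among them, passed the test as higher in KO. Of all 11056 genes tested, 36.3% passed as higher and 2.92% as lower. The summed level of the macrophage markers was 221 to 272 TPM in KO and 44.5 to 53.8 TPM in WT libraries, with none at 0 in any library. After trimmed-mean rescaling all 14 of them tested passed as higher, beside 13.8% of all genes. Fibroblast markers, 9 of 9 passing as higher, summed to 836 to 887 TPM in KO and 282 to 304 TPM in WT libraries. Endothelial markers (5 of 7 higher, 1 lower) summed to 170 to 189.7 TPM in KO and 92.6 to 102 TPM in WT libraries. The 11 lymphocyte markers summed to at most 2.78 TPM, with Cd2, Cd3e, Cd8a and Cd8b1 at 0 in some libraries. Adipocyte markers (none of 7 tested passing) summed to 68.2 to 211 TPM in KO and 99.0 to 144 TPM in WT libraries. Ucp1, the uncoupling protein of brown fat, was listed at 0 in every library. The part of these cells in the Acot9 and Ucp2 values was not tested. In bulk muscle, fewer cells of a type and less RNA per cell cannot be told apart.

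Acot13, the most abundant of the 8 in both genotypes, was at 96.5, 121 and 102 TPM in KO libraries and at 151, 144 and 197 TPM in WT libraries. The groups did not overlap, and the log2 difference was -0.61 (SE 0.17). Acot7 was at 11.1, 10.1 and 9.28 TPM in KO libraries and at 9.48, 9.75 and 11.98 TPM in WT libraries. Its groups overlapped, and its log2 difference was -0.03 (SE 0.15). Acot11, the least abundant, was at 3.83, 2.93 and 2.43 TPM in KO libraries and at 4.69, 3.51 and 4.32 TPM in WT libraries. The ranges overlapped through 1 library of each genotype, with a log2 difference of -0.35 (SE 0.16). Acot11 overlaps Fam151a on the opposite strand, and 19.3% of its 31-base stretches occur in other genes, most of them in Fam151a, which was at 0 to 0.0901 TPM. Ucp2 likewise overlaps Dnajb13, at 0 to 0.207 TPM. Of the 31-base stretches of Ucp2, 4.18% occur in other genes, most of them in Dnajb13. No strand setting is given in the sources used here, so reads from the stretches that such pairs share cannot be told apart.

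**Figure D1:**
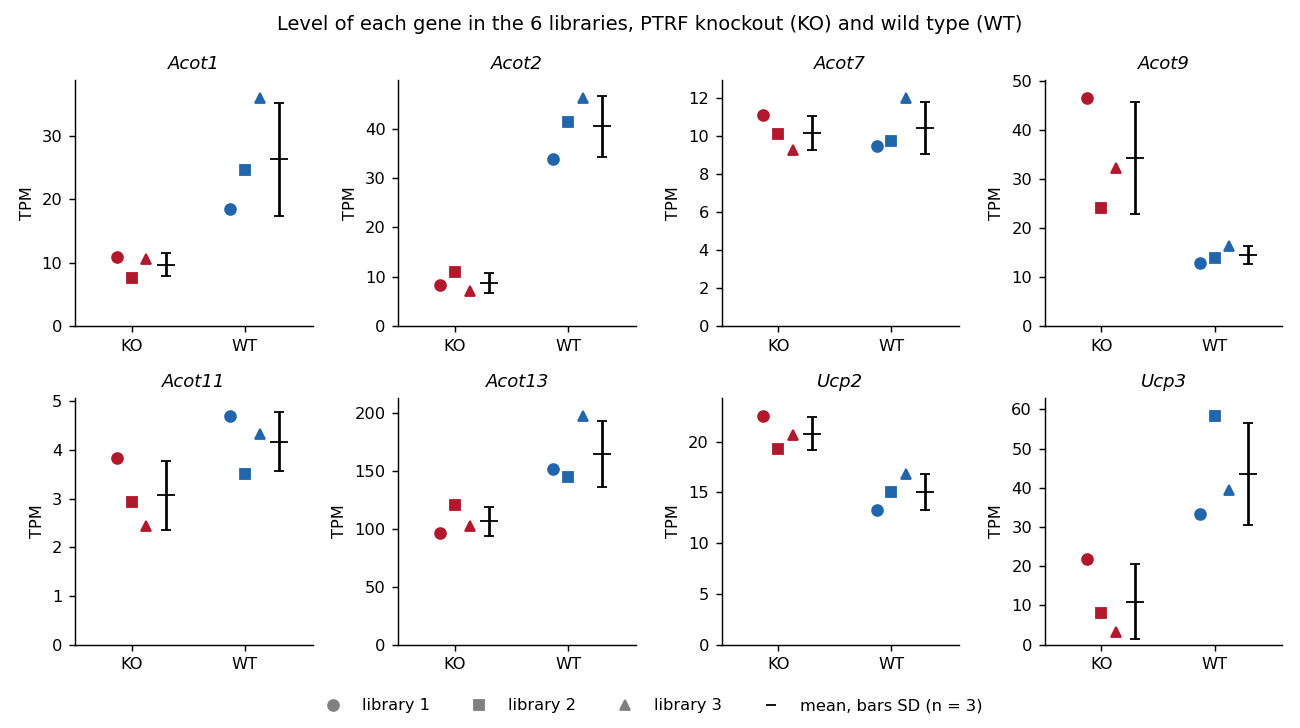
Level in TPM (vertical axis, from 0) of each of the 8 genes in the 3 KO and 3 WT libraries, with 1 symbol per library number and the mean and SD beside each group. KO values lie below all WT values for Acot1, Acot2, Acot13 and Ucp3 and above them for Acot9 and Ucp2, while the groups overlap for Acot7 and Acot11.

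In all, 4 of the 8 genes had KO values entirely below the WT values, where 4.83% of the 11056 genes tested did, and 2 had KO values entirely above, where 48.7% did. Together 6 of 8 did not overlap, where 53.6% of all genes did not. Since this contrast was used to choose the genes, nothing is read from these counts. All 8 passed the filter for testing, which asked for at least 1 TPM in at least 3 libraries.

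The order of the genes by level differed between the genotypes. In KO libraries it was Acot13, Acot9, Ucp2, Ucp3, Acot7, Acot1, Acot2 and Acot11. The ranges of Ucp2 and Ucp3, Ucp3 and Acot7, Acot7 and Acot1, and Acot1 and Acot2 overlapped as neighbours in that order, and the other neighbours were apart. In WT libraries it was Acot13, Ucp3, Acot2, Acot1, Ucp2, Acot9, Acot7 and Acot11, with overlapping ranges for Ucp3 and Acot2, Acot2 and Acot1, and Ucp2 and Acot9. Acot13 supplied 61.8 ± 7.004% of the summed TPM of the 6 thioesterases in KO and 63.2 ± 2.42% in WT (SD, n = 3 each). Acot2 supplied 5.07 ± 1.01% in KO and 15.7 ± 1.54% in WT, and Acot9 supplied 19.9 ± 6.33% in KO and 5.57 ± 0.302% in WT. The summed level of the 6 was 177, 176 and 164 TPM in KO libraries and 230.5, 238 and 312 TPM in WT libraries.

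WT library 3 held the highest value of its group for 6 of the 8 genes. Transcripts of the mitochondrial genome took 39.0%, 45.7% and 42.2% of the TPM in KO libraries 1, 2 and 3, against 52.3%, 51.1% and 43.0% in WT libraries 1, 2 and 3. With every library scaled to the same total over nuclear genes, WT library 3 was highest for 4 of the 8.

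The scale of the libraries moved the smaller differences. The median log2 difference of all genes tested was 0.33 as deposited, 0.16 on the nuclear-only scale, -0.02 after trimmed-mean rescaling, which sets libraries by the bulk of their genes, and -0.04 after quantile normalization. Ucp2, at 0.44 as deposited, was at 0.25 on the nuclear-only scale, 0.06 after trimmed-mean rescaling and 0.12 after quantile normalization. Acot7, at -0.03 as deposited, was at -0.40 after trimmed-mean rescaling. Acot9 was 0.76 and Acot2 was -2.48 on that scale, Acot13 was -1.02 and Ucp3 was -2.58. After trimmed-mean rescaling KO values lay below all WT values for 6 genes (23.7% of all genes) and above for Acot9 alone (20.2% of all genes), with Ucp2 overlapping. On the nuclear-only scale they lay below for 6 genes (11.1% of all genes) and above for Acot9 and Ucp2 (36.0% of all genes). After quantile normalization the same 6 genes lay below (24.9% of all genes) and Acot9 and Ucp2 above (19.3% of all genes).

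**Figure D2:**
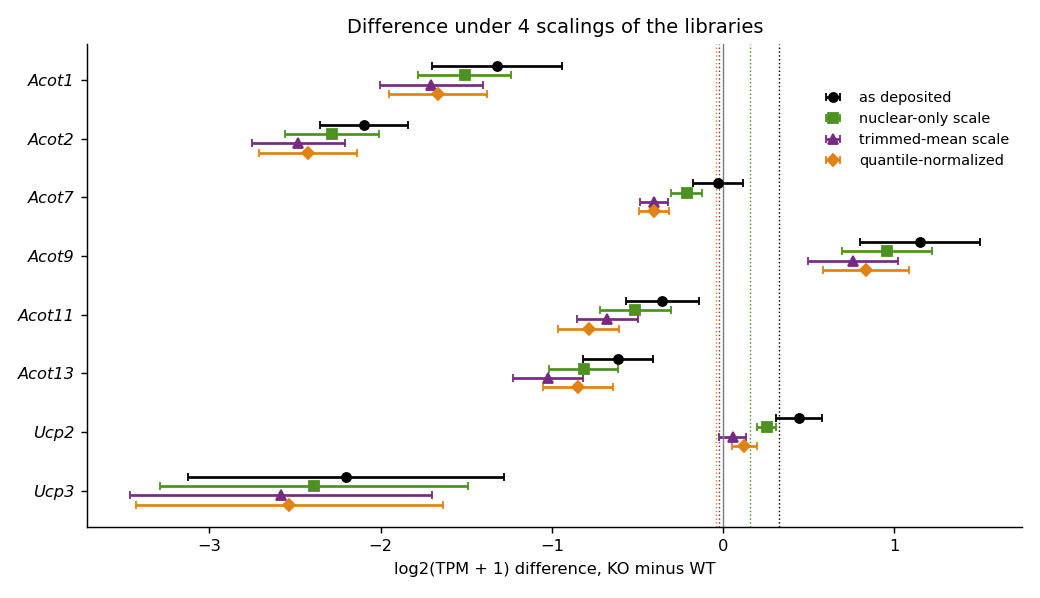
Difference of mean log2(TPM + 1), KO minus WT, for each gene on the deposited scale and under 3 other scalings; bars are the pooled SD within groups and dotted lines the median of all genes tested in the colour of each scaling. Acot1, Acot2, Acot13 and Ucp3 stay left of 0 and Acot9 right of it under all 4, while Ucp2 lies at 0.06 to 0.44 and Acot7 at -0.40 to -0.03.

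Levels were also set against the machinery they work beside. The 18 nuclear genes of the respiratory chain that were checked encode subunits of complexes of the mitochondrial inner membrane. They summed to 10922 to 11921 TPM in KO and 12332 to 17084 TPM in WT libraries. Of these, 7 of 18 passed as lower and 0 as higher, where 2.92% and 36.3% of all genes did. After trimmed-mean rescaling 17 of 18 passed as lower, where 14.4% of all genes did. Per 1000 TPM of these genes, Acot2 was at 0.758, 0.953 and 0.592 TPM in KO libraries and at 2.75, 2.93 and 2.71 TPM in WT libraries. On this measure Acot2 was nearly level within the WT group and again lower in every KO library. Ucp3 was at 1.99, 0.700 and 0.259 TPM in KO libraries and at 2.70, 4.12 and 2.30 TPM in WT libraries, also without overlap. Acot13 was at 8.84, 10.5 and 8.56 TPM in KO libraries and at 12.3, 10.2 and 11.5 TPM in WT libraries, so its groups overlapped once the respiratory chain genes were taken as the measure. Acot11 overlapped too, and Acot7, Acot9 and Ucp2 were higher in every KO library than in any WT library. The respiratory chain sum was itself lower in every KO library, and the share of all genes higher on this measure was not computed. Acot7 was at 0.778 to 1.01 TPM in KO and 0.690 to 0.768 TPM in WT libraries on it. On the nuclear-only, trimmed-mean and quantile-normalized scales its KO values lay below all WT values instead.

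**Figure D3:**
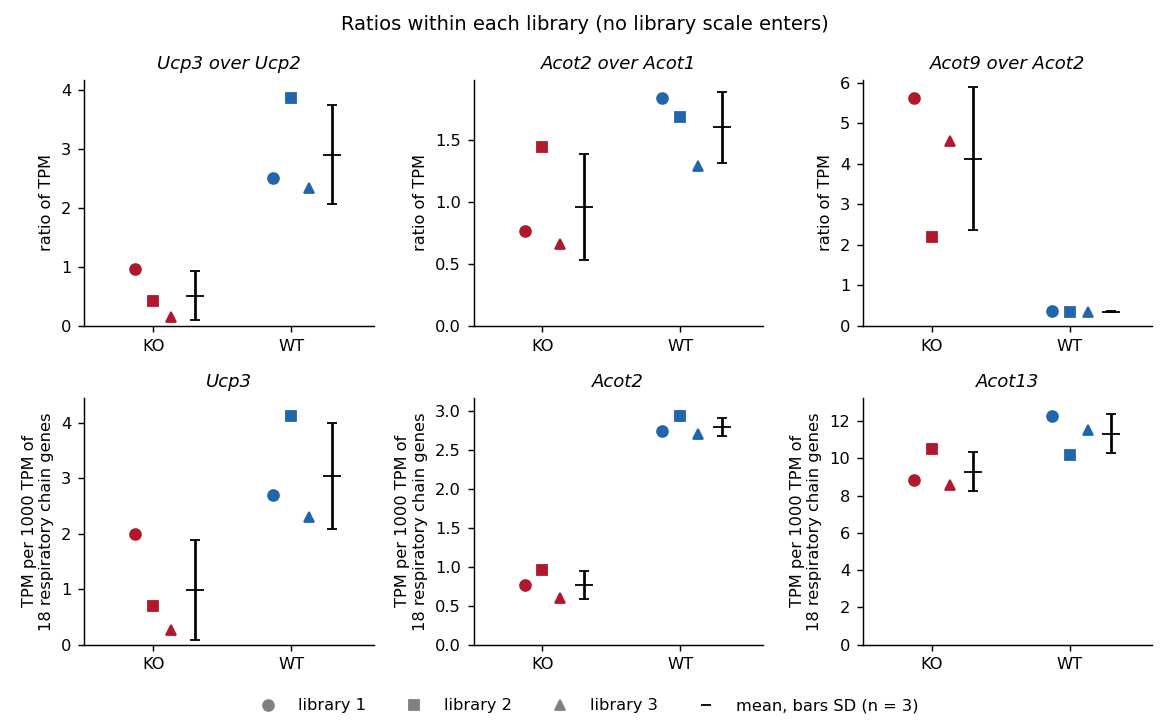
Ratios of TPM within each library (vertical axes from 0) for 3 pairs of genes and, in the lower row, level per 1000 TPM of 18 respiratory chain genes, with KO and WT libraries as points and the mean and SD beside them. Ucp3 over Ucp2 is at most 0.968 in KO and at least 2.34 in WT libraries, whereas Acot13 per respiratory chain TPM overlaps between the groups.

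Next, the genes around these enzymes were tested in the fit of all genes, in which 36.3% of the 11056 genes passed as higher and 2.92% as lower (limma, adjusted p under 0.05), 39.2% in all. Of all genes, 13.8% passed as higher and 14.4% as lower after trimmed-mean rescaling, 12.4% and 13.4% after quantile normalization, and 23.9% and 6.89% on the nuclear-only scale. The number higher, 4016 as deposited, was 2379 without KO library 1, 2504 without KO library 3 and 2535 without WT library 2. The libraries are the same as above, so these counts are not independent of the values already given. Of 52 genes for fatty acid handling, none of them a member of the set, 51 were tested. Of these, 20 fell in KO, 4 rose and 27 did not pass, and the median log2 fold change was -0.29, beside 0.33 for all genes. The number that fell was 38 of 50 after trimmed-mean rescaling, when none rose, and 31 of 50 on the nuclear-only scale, when 1 rose. With 1 library left out it was 16 or 17. The number that rose was 2 without KO library 2, KO library 3 or WT library 2, and 1 without WT library 1.

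Among uptake and binding genes, Slc27a1, a fatty acid transport protein, fell to 60.7 ± 4.77 TPM in KO, against 86.3 ± 13.3 TPM in WT (log2 fold change -0.49, adjusted p = 0.029). Fabp3, the binding protein of muscle and heart, fell by 0.98 on the log2 scale, and Fabp5, a binding protein of macrophages and fat among other tissues, rose by 0.60 (adjusted p = 0.025). Slc27a1 lost its call when any single library other than WT library 1 was left out (adjusted p = 0.055 to adjusted p = 0.136). Fabp5 lost it without KO library 2, WT library 1 or WT library 2 (adjusted p = 0.058 to adjusted p = 0.093) and on each of the 3 other scales, among them the nuclear-only one (adjusted p = 0.147).

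Acyl-CoA synthetases make the substrate that thioesterases split, and their members moved in both directions. Acsl1, the main long-chain synthetase of muscle, fell to 120, 149 and 117 TPM in KO libraries, against 193, 207 and 218 TPM in WT libraries (log2 fold change -0.68, SE 0.15, adjusted p = 0.0049). Acsl5 rose to 4.93 ± 1.56 TPM in KO, against 2.30 ± 0.799 TPM in WT, and Acsl6 to 7.46 ± 0.438 TPM, against 5.16 ± 0.936 TPM (adjusted p = 0.010 and adjusted p = 0.030). Neither kept its call after trimmed-mean rescaling (adjusted p = 0.114 and adjusted p = 0.656). Acsl6 also lost it without KO library 2, KO library 3, WT library 1 or WT library 3 (adjusted p = 0.055 to adjusted p = 0.114). The carnitine shuttle carries acyl groups into the matrix. Of its genes 3 of 6 fell and none rose, where 2.92% and 36.3% of all genes did. Cpt1b, the entry enzyme of muscle, fell to 126 ± 7.99 TPM in KO, against 211 ± 28.9 TPM in WT (adjusted p = 0.0031), and Cpt2 and the carrier Slc25a20 fell by 0.74 and 0.73 on the log2 scale.

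In the matrix, 8 of 15 genes of beta-oxidation and electron transfer fell and none rose, where 2.92% and 36.3% of all genes did. Acaa2, the thiolase of the last step, fell to 115 ± 10.3 TPM in KO, against 219.6 ± 56.3 TPM in WT (adjusted p = 0.0032). Hadha, a subunit of the trifunctional protein, fell by 0.69 and Etfdh by 0.93 on the log2 scale. These falls were smaller than the -2.10 of Acot2 and the -2.20 of Ucp3 on the same scale, a comparison given without a test. Acot2 and Ucp3 belong to a set chosen by this contrast, so nothing is read from their wider gaps.

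Of the other fatty-acid-responsive genes, 5 of 11 fell and none rose, where 2.92% and 36.3% of all genes did. Plin5, which binds lipid droplets to mitochondria, fell to 15.7, 12.3 and 14.4 TPM in KO libraries, against 35.5, 48.0 and 45.3 TPM in WT libraries (log2 fold change -1.53, SE 0.16, adjusted p = 4.2e-05). Ehhadh, the bifunctional enzyme of peroxisomal oxidation, fell to 2.16 ± 0.253 TPM in KO, against 4.88 ± 1.19 TPM in WT (adjusted p = 0.0019). Pdk4, a kinase that switches off pyruvate dehydrogenase, fell by 2.24 on the log2 scale. Other targets of the same receptors did not pass, among them Angptl4, an inhibitor of lipoprotein lipase, at 5.66, 1.78 and 0.897 TPM in KO libraries and 3.37, 3.93 and 3.33 TPM in WT libraries. Plin2, a lipid droplet protein, had a log2 fold change of -0.17 (adjusted p = 0.37).

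Among 18 nuclear receptors and co-regulators tested, 4 rose and 2 fell, where 36.3% of all genes rose and 2.92% fell. The median log2 fold change of the list was 0.14, beside 0.33 for all genes. The receptor gene Ppara was at 6.99, 5.68 and 8.53 TPM in KO libraries and at 8.66, 7.37 and 6.64 TPM in WT libraries and did not pass (adjusted p = 0.66), while Ppard was at 9.23 ± 1.94 TPM in KO and 6.32 ± 0.538 TPM in WT (adjusted p = 0.044). Esrra, a receptor that acts on mitochondrial genes, fell to 49.9 ± 3.80 TPM in KO, against 73.5 ± 7.35 TPM in WT (adjusted p = 0.012). Thra, a thyroid hormone receptor, rose by 0.55 (adjusted p = 0.0099). Myod1, a myogenic factor known to act on the Ucp3 promoter, rose to 13.3, 8.36 and 11.6 TPM in KO libraries, against 2.04, 1.32 and 1.41 TPM in WT libraries (log2 fold change 2.21, SE 0.18, adjusted p = 8.5e-06). After trimmed-mean rescaling 1 rose and 5 fell, where 13.8% and 14.4% of all genes did, and Thra lost its call (adjusted p = 0.36). Without KO library 3, 2 rose and none fell, and Esrra lost its call (adjusted p = 0.061). The number that rose was also 2 without KO library 1 or without any WT library, and 1 fell without WT library 2. Ppard lost its call on the trimmed-mean, quantile-normalized and nuclear-only scales. It also lost it without KO library 1, KO library 3 or any single WT library.

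Pank1, a pantothenate kinase that starts coenzyme A synthesis, fell to 8.68, 15.1 and 8.77 TPM in KO libraries, against 36.1, 39.9 and 39.2 TPM in WT libraries (log2 fold change -1.78, SE 0.19, adjusted p = 5.5e-05). Its 3 sister kinases did not pass. Nudt7, a peroxisomal hydrolase of coenzyme A, fell to 23.7 ± 4.61 TPM in KO, against 44.0 ± 7.32 TPM in WT (adjusted p = 0.0033). These were the 2 of 11 genes of coenzyme A synthesis and breakdown that passed, where 2.92% of all genes fell and 36.3% rose. The median of the list was 0.03, beside 0.33 for all genes. After trimmed-mean rescaling 5 fell, where 14.4% of all genes did. On the deposited scale 1 gene rose without KO library 2 or WT library 3.

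Of 20 other thioesterases and uncoupling protein kin, none of them a member of the set, 12 passed the filter, and of these 3 rose and none fell, where 36.3% of all genes rose and 2.92% fell. The median log2 fold change of the 12 was 0.17, beside 0.33 for all genes. Fasn, the fatty acid synthase, whose own thioesterase releases the product, rose by 0.90 (adjusted p = 0.0079). Slc25a30, a carrier related to the uncoupling proteins, and Them6 rose by 0.55 each (adjusted p = 0.015 and adjusted p = 0.019). After quantile normalization none of these 3 kept its call and 4 members of the list fell, where 13.4% of all genes fell. On the deposited scale the number that rose was 1 without KO library 1 or WT library 1 and 5 without KO library 2. Slc25a30 and Them6 lost their calls without KO library 1 or WT library 1 (adjusted p = 0.052 to adjusted p = 0.078). Slc25a4, the adenine nucleotide carrier of muscle, was at 1434, 1662 and 1607 TPM in KO libraries and at 1785, 1943 and 2413 TPM in WT libraries and did not pass (adjusted p = 0.089).

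**Figure D4:**
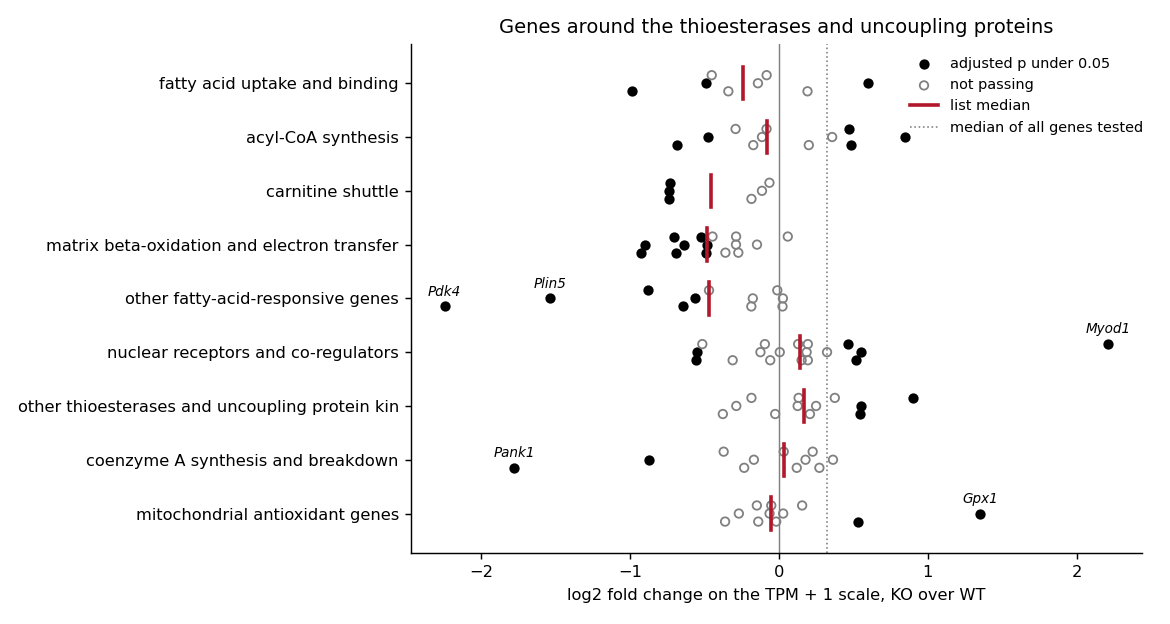
Log2 fold change on the TPM + 1 scale, KO over WT, of each tested gene in 9 lists around the thioesterases and uncoupling proteins; filled points passed an adjusted p of 0.05, red bars are list medians and the dotted line is the median of all genes tested, 0.33. Pdk4, Plin5 and Pank1 lie farthest to the left, and Myod1 and Gpx1 farthest to the right.

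The genes most alike to Ucp3 and to Acot2 were sought among 6939 genes with a mean of at least 5 TPM, by the root mean square difference of log2(TPM + 1) profiles over the 6 libraries, each centred on its mean. Pdk4 was nearest to Ucp3, at 0.27, and the next, Slc25a22, a mitochondrial glutamate carrier, was at 0.58. Pdk4 was at 383, 265 and 104 TPM in KO libraries and at 878, 1194 and 1084 TPM in WT libraries. Its KO values had the order of those of Ucp3, highest in KO library 1 and lowest in KO library 3. Slc25a22 had this order too, at 14.2, 6.55 and 6.33 TPM in KO libraries. The genes were picked by nearness over these same libraries, so nothing further is read from a shared order. Dkk2 (0.60), Gbp6 (0.63) and the transferrin receptor gene Tfrc (0.71) followed. Pank1 was nearest to Acot2, at 0.21, followed by Pcp4l1 (0.24), the carbonic anhydrase gene Car4 (0.27), Klhl23 (0.30) and Gbp6 (0.31). Both Pank1 and Acot2 were highest in library 2 of the KO group. Acot1 came at rank 22 from Acot2, and Ucp3 at rank 93. From Ucp3, Acot2 came at rank 6 and Acot1 at rank 23.

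**Figure D5:**
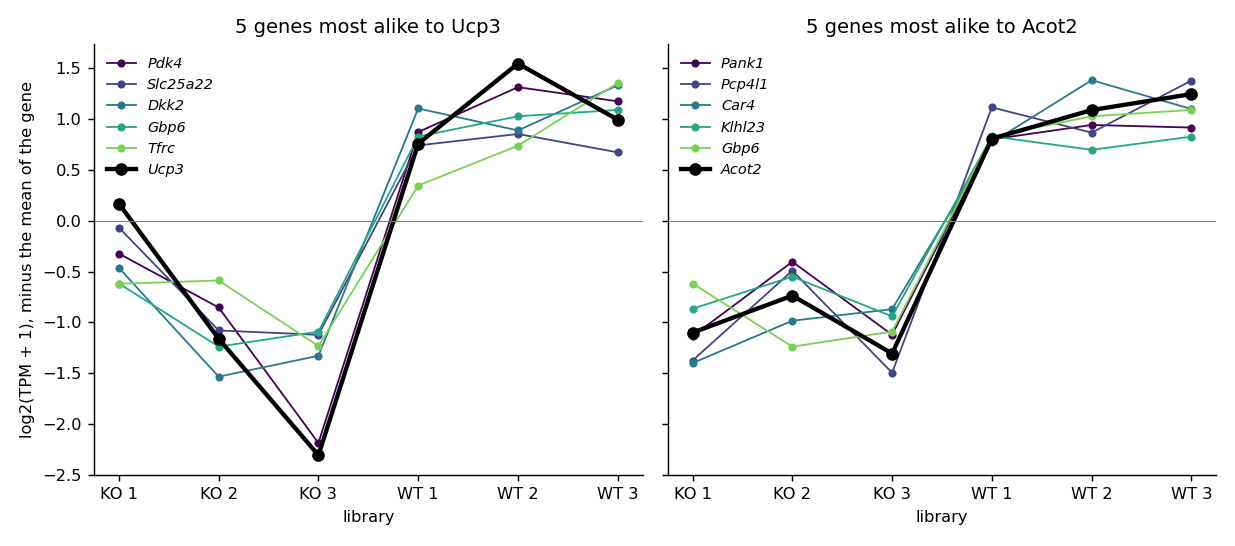
Profiles of log2(TPM + 1), minus the mean of each gene, over the 3 KO and 3 WT libraries for Ucp3 (left, black) and Acot2 (right, black) with the 5 genes nearest to each. Pdk4 and Slc25a22, picked for nearness over these libraries, follow Ucp3 in its order among the KO libraries. Pank1 and Acot2 share only their highest KO library, library 2.

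Clock genes moved with the genotype as well. Of 15 tested, 11 rose and 1 fell, where 36.3% and 2.92% of all genes did. After trimmed-mean rescaling 8 rose and 4 fell, where 13.8% and 14.4% of all genes did. Arntl, an activator of the clock, was at 8.06, 11.9 and 8.69 TPM in KO libraries and at 18.5, 19.3 and 21.0 TPM in WT libraries (log2 fold change -0.98, adjusted p = 0.00083). The output factor Dbp was at 12.01, 27.0 and 20.7 TPM in KO libraries and at 3.08, 1.88 and 3.49 TPM in WT libraries (log2 fold change 2.41, adjusted p = 4.7e-05). Pdk4 and Ucp3 are known to vary with feeding and time of day in muscle. The labels give no hour of collection or feeding state, and the part of either in the values of these genes was not tested.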

How the data were processed

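Poly(A) RNA was prepared with TRIzol and NEBNext Ultra kits, per the labels' protocols. The submitters' processing notes list the tools STAR (2.5.3a) and kallisto (0.43.0) with the build names mm10 and GRCm38; what each was used for is not given in the sources used here. The deposited values were taken as TPM from the values alone, since no header or label names the unit. Genes absent from a file were set to 0, and files repeated under the other muscle were counted once.

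The members and gene lists were chosen with earlier results of these data known. A linear model of log2(TPM + 1) was fitted by limma (version 3.58.1, R 4.3.3) to the 11056 genes that reached 1 TPM in 3 or more libraries. Its variance prior followed the mean level, 4 residual degrees of freedom remained, and two-sided p-values were adjusted by Benjamini-Hochberg and called at 0.05. The fold change of a low gene is understated on this scale. The test was checked on simulated data in which few genes changed, equally in both directions, unlike the 36.3% higher and 2.92% lower here. That check does not bear on the split by direction. Named genes were all members, the 3 passing genes of smallest adjusted p per list, and the 5 nearest profiles of Ucp3 and Acot2; Ppara, Ppard, Angptl4, Plin2, Slc25a4, Sod2, the fibre genes, Arntl and Dbp were chosen after their values were seen. One gene symbol in the antioxidant list, Nnt, stands for 2 gene entries. Alternatives were other scales, pseudocounts of 0.1 and 5, no filter or one of 10 TPM, no trend, a replicate block and each library left out. The trimmed mean left out 30% of ratios and 5% of levels at each end. Python 3.11.15, pandas 2.3.3 and matplotlib 3.10.9 were used for tables and plots.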

Additional observations from a re-analysis of the deposited data

How the results depend on the processing

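Acot1, Acot2, Acot9, Acot11, Acot13, Ucp2 and Ucp3 kept the sign of their log2 difference under every alternative run. With single libraries left out the ranges were -1.54 to -1.08 (Acot1), -2.25 to -1.97 (Acot2), 0.91 to 1.37 (Acot9), -0.49 to -0.24 (Acot11), -0.71 to -0.48 (Acot13), 0.36 to 0.52 (Ucp2) and -2.84 to -1.60 (Ucp3). Acot7 changed sign, with a range of -0.090 to 0.067, being 0.03 without KO library 3 and 0.067 without WT library 3. After trimmed-mean rescaling Acot1 was -1.70, Acot2 -2.48, Acot7 -0.40, Acot9 0.76, Acot11 -0.67, Acot13 -1.02 and Ucp2 0.056. After quantile normalization Acot2 was -2.43, Acot7 -0.40, Acot11 -0.78, Acot13 -0.85 and Ucp2 0.12. On the nuclear-only scale Acot7 was -0.21 and Ucp2 0.25. Acot2 was -1.73 with a pseudocount of 5, and Acot1 and Acot2 summed were -1.78. The scale sets the split by direction. Of all genes, 1516 rose and 1582 fell after trimmed-mean rescaling, 1368 and 1479 after quantile normalization, 2634 and 760 on the nuclear-only scale, against 4016 and 323 as deposited. With the 10 TPM filter 1616 of 4887 genes rose. Leaving out single libraries gave 2379 to 4150 higher (fewest without KO library 1) and 219 to 346 lower.

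For fatty acid handling, none rose and 38 fell after trimmed-mean rescaling, 0 and 35 after quantile normalization, 1 and 31 on the nuclear-only scale; 0 rose without a filter and 1 with the 10 TPM filter. Single libraries left out gave 1 to 4 higher and 16 to 17 lower. For nuclear receptors, 1 rose and 5 fell after trimmed-mean rescaling, 1 and 4 after quantile normalization; 2 rose on the nuclear-only scale and without a filter, and 2 rose and 1 fell with the 10 TPM filter (2 to 5 higher and 0 to 3 lower with single libraries left out). For other thioesterases and kin, 1 rose and 3 fell after trimmed-mean rescaling, 0 and 4 after quantile normalization, 2 fell on the nuclear-only scale, 1 rose without a filter and 0 with the 10 TPM filter (1 to 5 higher and 0 lower with single libraries left out). For coenzyme A genes, 5, 5 and 4 fell after trimmed-mean, quantile and nuclear-only scaling (0 to 1 higher and 2 lower with single libraries left out). For antioxidant genes, 1 rose and 7 fell after trimmed-mean rescaling, 5 fell after quantile normalization, 1 rose and 3 fell on the nuclear-only scale, and 1 rose without a filter (1 to 2 higher and 0 to 1 lower with single libraries left out). The cause was not tested.

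Same-numbered KO and WT libraries did not deviate together (correlation across genes 0.0283, -0.00808 and 0.0369, and not every library was closest to its own number), so the numbers were not taken as pairs. With the replicate number as a block 4047 genes rose and 326 fell, and 4 fatty acid handling genes rose and 19 fell. The depth is unknown, which limits what low values show.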

Other observations

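Mitochondrial antioxidant genes encode enzymes that clear superoxide and peroxide made by the respiratory chain. Of 11 entries 2 rose in KO libraries and none fell, where 36.3% of all genes rose and 2.92% fell, and the median log2 fold change was -0.05, beside 0.33 for all genes. Gpx1, a glutathione peroxidase of cytosol and mitochondria, rose to 49.7, 45.5 and 52.6 TPM in KO libraries, against 20.1, 18.9 and 17.1 TPM in WT libraries (log2 fold change 1.35, limma adjusted p = 3.8e-05). Gpx4, which reduces lipid peroxides, rose by 0.53 on the log2 scale (limma adjusted p = 0.028), and lost its call after trimmed-mean rescaling (adjusted p = 0.476) and without KO library 1, KO library 3, WT library 1 or WT library 2 (adjusted p = 0.080 to adjusted p = 0.120). Sod2, the superoxide dismutase of the matrix, was at 120, 148 and 143 TPM in KO libraries and at 174, 153 and 203 TPM in WT libraries and did not pass (adjusted p = 0.091). After trimmed-mean rescaling 1 entry of the list rose and 7 fell, where 13.8% of all genes rose and 14.4% fell, and the median was -0.46, beside -0.02 for all genes. The number that rose was 1 without KO library 1, KO library 3, WT library 1 or WT library 2, and 1 entry fell without WT library 2.

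The remaining genes of the Acot cluster on chromosome 12, which follow Acot2 and Acot1 on the same strand, were low. Acot6 was at 2.05, 1.94 and 1.98 TPM in KO libraries and at 2.14, 1.97 and 2.03 TPM in WT libraries. Acot4 was at 1.85, 0.814 and 1.10 TPM in KO libraries and at 0.880, 0.828 and 0.795 TPM in WT libraries. Acot3 and Acot5 were listed at 0 in every library.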
